A study of Mus musculus with 25 samples.

Results

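The comparison described here is that of GPx4+/- mice with WT littermates when both were fed a high fat high sucrose (HFHS) diet. Its members were chosen by the genotype and diet in the sample labels, which gave 10 of the 25 mice sequenced, 5 GPx4+/- HFHS and 5 WT HFHS. All were males that entered the diet at 8 to 10 weeks of age and stayed on it for 16 weeks. The HFHS diet supplied 35.5% of calories as lard-based fat, 38% as sucrose and 1.5% as cholesterol, and none of these 10 mice received carnosine. The control (CNTL) diet was low in fat (6% of calories), and 5 GPx4+/- CNTL and 5 WT CNTL mice were used as a second set of animals with the same contrast. In GPx4+/- mice 1 of the 2 alleles of Gpx4 is disrupted; the methods name no promoter or Cre that limits this to the heart, so it is not a cardiomyocyte model. The mice were fasted before tissue collection and received dextrose or saline, and which of these mice received which is not given in the sources used here. Poly(A) RNA of bulk myocardium was sequenced, so fewer cells of a type and less RNA per cell cannot be told apart.

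Glutathione peroxidase 4 is the selenoenzyme that uses glutathione to reduce phospholipid hydroperoxides inside membranes. It is the main brake on ferroptosis, a form of cell death driven by iron and lipid peroxidation, and it relies on a selenocysteine that is inserted at an in-frame TGA codon. Parallel defences are run by Aifm2 (FSP1) and Dhodh, which keep quinones reduced, and by Gch1, which makes tetrahydrobiopterin. The heart is rich in mitochondria and polyunsaturated lipid, which makes this pathway of interest in diet-induced obesity.

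Values are TPM, a share of a library's transcripts corrected for transcript length, summed per gene and divided by 1 scaling factor per mouse ("scaled TPM"). Fold changes are GPx4+/- HFHS minus WT HFHS in log2 units after adding 0.5 to each scaled TPM, and for genes of low level they come out smaller than the true change. Adjusted p are Benjamini-Hochberg values from limma over the 11983 genes that averaged 1 scaled TPM or more across the 25 mice, and a gene was called at an adjusted p under 0.05. TPM keeps no read depth, so no counting error can be given. Mitochondrial transcripts made up 31.3% to 42.5% of the TPM in WT HFHS and 33.0% to 48.7% in GPx4+/- HFHS (two-sided exact permutation p = 0.325), and 11657 to 12246 genes per library reached 1 TPM. All 10 cardiomyocyte markers were present in each heart, with a summed scaled TPM of 56231 to 65043 in WT HFHS and 57249 to 63708 in GPx4+/- HFHS (two-sided exact permutation p = 0.944).

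Some hearts carried RNA of cells other than ventricular myocytes. In GPx4+/- HFHS replicate 4, each of the 9 atrial markers was higher than in the other 9 mice. Myl7, the atrial myosin light chain, was at 886 there and at 0 to 99.6 elsewhere, and the summed atrial level was 3806 against at most 939 in WT HFHS. GPx4+/- HFHS replicates 1 and 3 held hepatocyte RNA: Alb was at 40.8 and 23.0 in these hearts, and at 0.231 to 0.806 in WT HFHS. Replicate 4 also had more of it than any WT heart, with Alb at 3.83 and a summed hepatocyte level of 35.0 against at most 21.3. WT HFHS replicate 4 was highest of the 10 for 8 of 10 smooth muscle and 10 of 12 valve markers, with Myh11 at 48.1 against 9.31 to 29.6 in the other hearts. The calls, and the lists and genes described below as led by these 4 hearts, are also given without them, a choice made after their values were seen. The hearts kept were not free of such RNA. Myl7 was at 99.6 and 24.8 in WT HFHS replicates 1 and 2. The summed valve level was 111 in WT HFHS replicate 2, against 110 in GPx4+/- HFHS replicate 4.

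The disrupted gene was the first to be examined. Gpx4 (ENSMUSG00000075706.10, protein coding, chr10:80047166-80056439, plus strand, GRCm38) had a scaled TPM of 743.5, 699.8, 776.9, 600.8 and 733.1 in the WT HFHS mice. In the GPx4+/- HFHS mice it was at 382.4, 323.8, 345.0, 362.2 and 343.8. The highest GPx4+/- heart lay well below the lowest WT heart, so the groups did not overlap and each label was borne out. On average GPx4+/- hearts held 49.4% of the WT level (two-sided exact permutation p = 0.00794, the smallest that 5 against 5 mice allow), and the log2 fold change was -1.01 (SE 0.087, adjusted p = 2.14e-06 from limma). On the CNTL diet the GPx4+/- mean was 45.6% of WT, with a log2 fold change of -1.14. The difference between diets was 0.13 on the log2 scale, with a 95% interval from -0.13 to 0.38 that includes 0.

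Most of the Gpx4 RNA was assigned to the transcript Gpx4-202, at 531 to 653 in WT HFHS and 268 to 323 in GPx4+/- HFHS. The next, Gpx4-207, was at 64.0 to 152 in WT HFHS and 36.6 to 81.3 in GPx4+/- HFHS, where the groups overlapped. Gpx4-201 was far lower, at 1.16 to 4.98 and 0.754 to 1.47. The GPx4+/- means were 49.3% of WT for Gpx4-202 and 49.95% for Gpx4-207, and only Gpx4-202 was called when transcripts were tested singly (log2 fold change -1.02, adjusted p = 0.000102 from limma).

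Gpx4 has a processed copy on the same chromosome, Gpx4-ps2 (chr10:45875291-45876086, plus strand, GRCm38). Over 762 aligned bases the Gpx4-202 and Gpx4-ps2-202 transcripts differ at 2 bases, with an identity of 99.7%, and their longest identical run is 314 bases. The stretch around the in-frame TGA at codon 73 of Gpx4-202 is shown because it is the active site and because it shows how little separates the copies. Both stretches are 150 bases of GENCODE release M21 transcripts, and capitals mark the TGA codon and the base that differs. That of Gpx4-202 is spliced from chr10:80054571-80054811 and that of Gpx4-ps2-202 lies at chr10:45875393-45875542.
Gpx4-202: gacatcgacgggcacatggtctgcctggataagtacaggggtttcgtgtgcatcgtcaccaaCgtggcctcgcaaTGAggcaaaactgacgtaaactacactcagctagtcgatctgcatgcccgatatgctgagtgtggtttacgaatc
Gpx4-ps2-202: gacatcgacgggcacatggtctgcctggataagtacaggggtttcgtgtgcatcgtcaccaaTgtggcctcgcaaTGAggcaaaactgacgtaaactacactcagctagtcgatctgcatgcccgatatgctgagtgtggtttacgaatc

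Gpx4-ps2 was listed at 2.56, 1.43, 2.43, 2.54 and 2.42 scaled TPM in WT HFHS. In GPx4+/- HFHS it was at 0.970, 1.03, 0.351, 0.668 and 1.17. It was lower in each GPx4+/- mouse than in each WT mouse but did not reach the threshold (log2 fold change -1.07, SE 0.198, adjusted p = 0.0515 from limma). On the CNTL diet it did (log2 fold change -1.18, adjusted p = 0.0188 from limma). Its share of the summed level of both genes was 0.322% ± 0.078 (SD, n = 5) in WT HFHS and 0.239% ± 0.098 (SD, n = 5) in GPx4+/- HFHS (two-sided exact permutation p = 0.183). Summed with Gpx4, the level in GPx4+/- HFHS was 49.4% of WT. Reads of the shared sequence cannot be placed with certainty, so this transcript has no level that is independent of Gpx4.

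Only 6 of the 11983 genes tested, or 0.0501%, were called on the HFHS diet, and Gpx4 was 1 of them. Gm9855, Hprt and Gm4924 were higher in GPx4+/- hearts, and Tdg and 1190007I07Rik were lower. In each of the 6 the 5 GPx4+/- mice did not overlap the 5 WT mice, a separation that 87 of the genes tested (0.726%) had in either direction. Before adjustment, p was under 0.05 for 547 genes (4.56%), made up of 263 (2.19%) higher and 284 (2.37%) lower in GPx4+/- hearts. That balance depends on the scaling. With TPM as deposited, where the median of all genes moved to -0.07, 28 were higher and 608 lower, and the genes called were the same 6 with Gpx4-ps2 added.

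**Figure D1:**
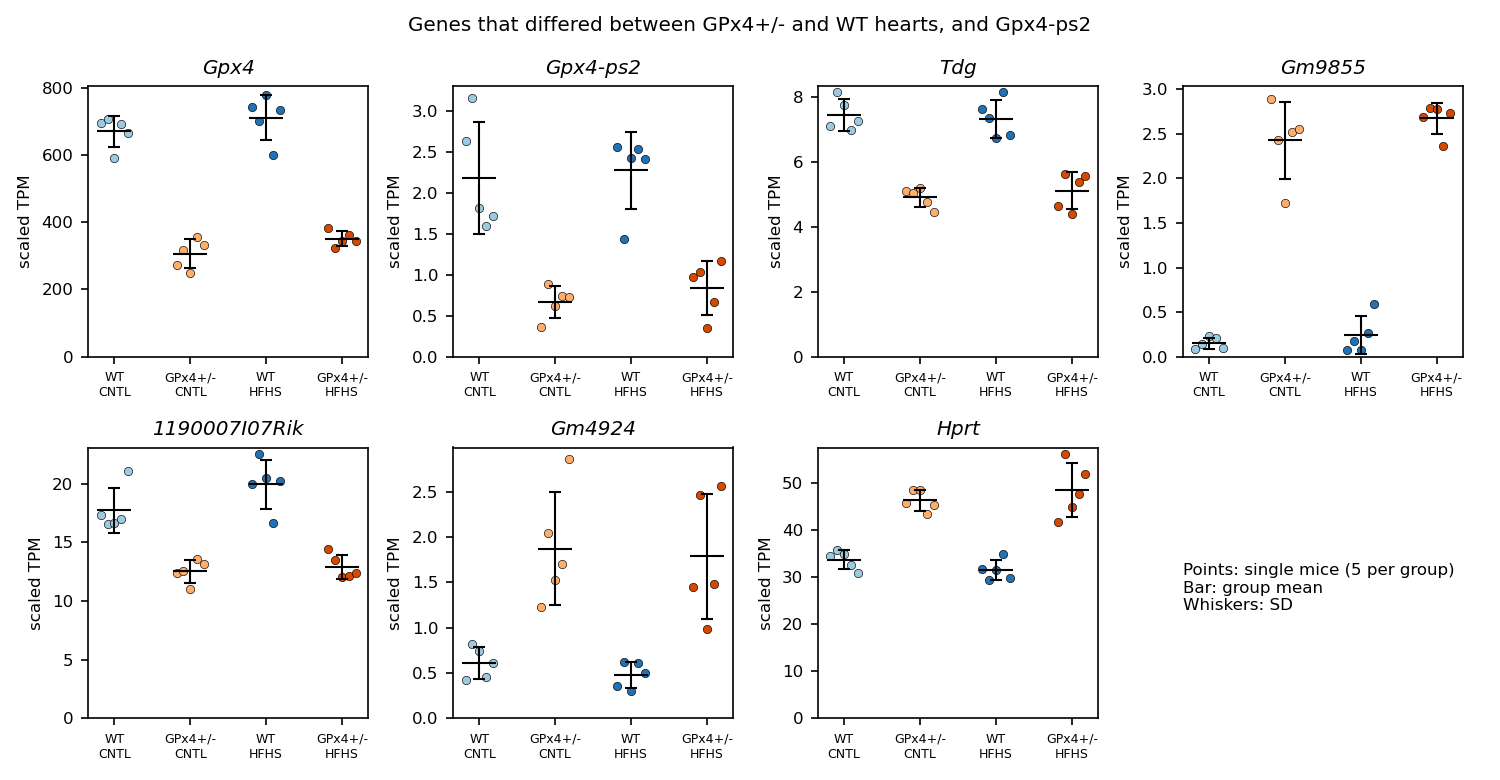
Scaled TPM (vertical axes, from 0) of the 6 called genes and Gpx4-ps2 in the single mice of 4 groups, with group mean and SD (n = 5). In each panel the GPx4+/- HFHS mice lie wholly above or below the WT HFHS mice, as for Gpx4 at 324 to 382 against 601 to 777.

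**Figure D2:**
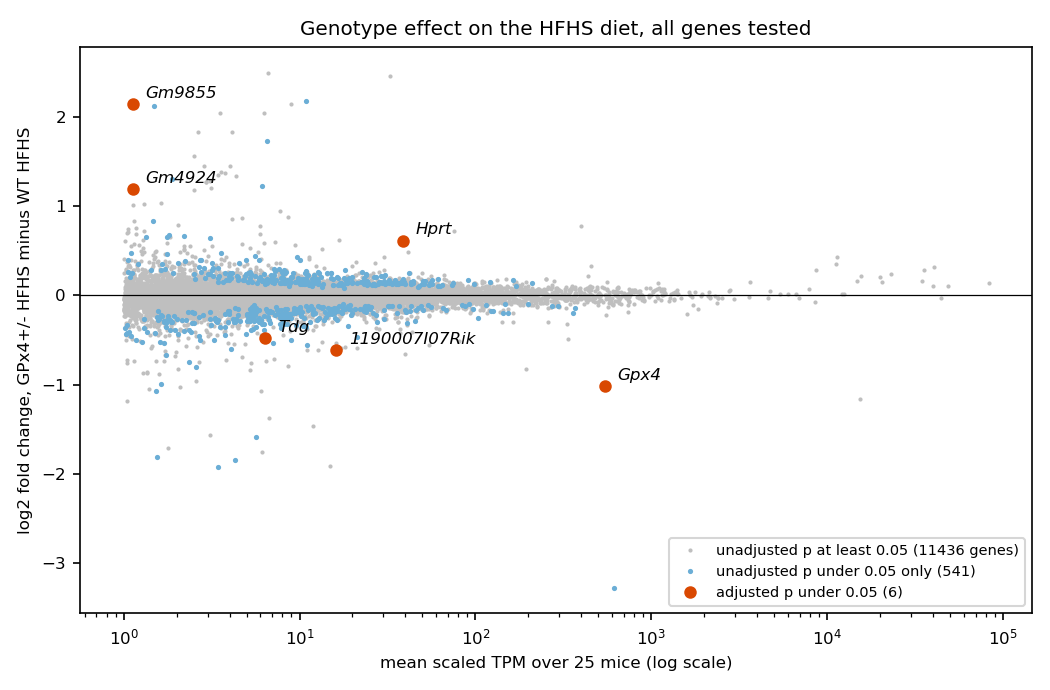
Log2 fold change of GPx4+/- HFHS over WT HFHS (vertical axis) against mean scaled TPM over the 25 mice (horizontal axis, log scale) for 11983 genes. The 6 called genes stand out from a narrow band, while genes of low level scatter widely without being called.

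Thymine DNA glycosylase (Tdg), an enzyme of base excision repair that also removes oxidised methylcytosine, was lower in GPx4+/- hearts. Tdg (ENSMUSG00000034674.18, chr10:82629828-82650799, plus strand, GRCm38) was at 7.61, 7.33, 6.72, 8.14 and 6.82 scaled TPM in WT HFHS. The GPx4+/- HFHS values were 4.64, 5.62, 4.38, 5.38 and 5.55, all below the WT range. The log2 fold change was -0.48 (SE 0.072, adjusted p = 0.00483 from limma) and the GPx4+/- mean was 69.8% of WT. The call was lost with only the 10 HFHS mice in the fit (the same fold change, adjusted p = 0.229 from limma) and without the 4 hearts rich in RNA of other cells (-0.32, adjusted p = 0.176 from limma).

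Gm9855 (ENSMUSG00000085666.3, a processed pseudogene at chr10:42054113-42055306, minus strand, GRCm38) went the other way. It was at 0.0806, 0.178, 0.0771, 0.271 and 0.594 in WT HFHS. In GPx4+/- HFHS it was at 2.68, 2.79, 2.78, 2.36 and 2.74. The log2 fold change was 2.14 (SE 0.155, adjusted p = 2.23e-07 from limma), the smallest p of all genes tested.

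The Gm9855 transcript is a copy of the coding sequence of Tdg. All 1194 of its bases align with Tdg-201, from base 162 to 1355 where the coding sequence runs from 162 to 1352, with 9 differing bases, no gap and an identity of 99.2%. The longest identical run is 756 bases, so reads that fall within it cannot tell these transcripts apart. The 150 coding bases with most differences, 5 of the 9, are printed because reads over them can, as can reads over the other 4 or over Tdg-201 sequence outside the alignment, with the differing bases in capitals. The Tdg-201 stretch is spliced from chr10:82647979-82648627 and that of Gm9855-201 is read from the minus strand of chr10:42054206-42054355.
Tdg-201: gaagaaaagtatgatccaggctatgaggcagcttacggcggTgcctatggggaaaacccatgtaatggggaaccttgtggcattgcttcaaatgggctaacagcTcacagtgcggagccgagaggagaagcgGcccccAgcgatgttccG
Gm9855-201: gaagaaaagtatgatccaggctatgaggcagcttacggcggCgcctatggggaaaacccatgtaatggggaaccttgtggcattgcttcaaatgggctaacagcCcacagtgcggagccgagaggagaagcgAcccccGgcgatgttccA

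The sum of the pair did not separate the genotypes. Tdg and Gm9855 together were at 7.69, 7.51, 6.79, 8.41 and 7.42 scaled TPM in WT HFHS. Together they were at 7.32, 8.41, 7.16, 7.74 and 8.28 in GPx4+/- HFHS, and the groups overlapped over nearly their whole range. The GPx4+/- mean of the sum was 103% of WT (two-sided exact permutation p = 0.564). The share of the sum listed under Gm9855 was 3.16% ± 2.86 (SD, n = 5) in WT HFHS and 34.5% ± 3.28 (SD, n = 5) in GPx4+/- HFHS. A change in the assignment of reads within the pair and opposite changes of both transcripts cannot be told apart in TPM. A further copy on chromosome 15, Tdg-ps, 98.8% identical to Tdg-201 over 2845 bases, was too low to be tested, at 0 to 0.0227 in WT HFHS and 0.126 to 0.399 in GPx4+/- HFHS. The copy Gm5597, on chromosome 7, stayed at or below 0.0716 in all 10 mice. AC122846.1, a short pseudogene on chromosome 19 that is 99% identical to Tdg-201 over 203 bases, was listed at 0 in WT HFHS and at 0 to 2.2 in GPx4+/- HFHS, and was not tested.

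1190007I07Rik (ENSMUSG00000063320.11, protein coding, chr10:82619851-82623228, minus strand, GRCm38) lies next to Tdg. Its scaled TPM was 19.9, 22.5, 20.5, 16.7 and 20.2 in WT HFHS. In GPx4+/- HFHS it was 14.4, 13.5, 12.0, 12.1 and 12.4, with no overlap (log2 fold change -0.61, SE 0.080, adjusted p = 0.000993 from limma). Of its 5 transcripts, 1190007I07Rik-201 had the highest mean in both groups and was at 6.87 to 11.1 in WT HFHS and 4.38 to 6.50 in GPx4+/- HFHS. This gene too has a near copy on chromosome 10, 1810014B01Rik, which is 96% identical over 621 bases and was at 11.0 to 19.2 in WT HFHS and 6.61 to 17.7 in GPx4+/- HFHS. The copy was not called (log2 fold change -0.28, adjusted p = 0.979 from limma). Summed, the pair was at 31.0 to 39.7 in WT HFHS and 18.7 to 32.1 in GPx4+/- HFHS, a GPx4+/- mean of 73.1% of WT (two-sided exact permutation p = 0.0159), so the lower level was kept in the sum.

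Gm4924 (ENSMUSG00000073427.4, protein coding, chr10:82354255-82422882, plus strand, GRCm38) was barely present in WT HFHS, at 0.355, 0.616, 0.299, 0.610 and 0.496 scaled TPM. It was at 1.45, 2.46, 0.982, 1.48 and 2.56 in GPx4+/- HFHS, above each WT mouse but widely spread. The log2 fold change was 1.19 (SE 0.202, adjusted p = 0.0214 from limma). No other gene shared 200 bases at 90% identity with Gm4924-205, its most abundant transcript (490 bases), for which the groups overlapped. The other transcripts of Gm4924 were not searched. This call was lost without WT HFHS replicate 1, 3 or 5 and without GPx4+/- HFHS replicate 2 or 5, with adjusted p between 0.0649 and 0.0987 from limma and fold changes between 1.07 and 1.20.

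Hprt was the only called gene outside chromosome 10. Hypoxanthine phosphoribosyltransferase returns hypoxanthine and guanine to the nucleotide pool and is often used as a reference gene in qRT-PCR. The gene (ENSMUSG00000025630.8, chrX:52988137-53021659, plus strand, GRCm38) was at 31.8, 29.4, 31.5, 34.9 and 29.9 scaled TPM in WT HFHS. It was at 41.8, 56.3, 45.0, 47.7 and 52.0 in GPx4+/- HFHS, so the lowest GPx4+/- heart was above the highest WT heart. The GPx4+/- mean was 154% of WT (log2 fold change 0.61, SE 0.069, adjusted p = 0.000127 from limma). Hprt has a single transcript in the table and no other gene at 90% identity over 200 bases. None of the other 23 tested genes of purine salvage and turnover had an unadjusted p under 0.05, and the median of the 24 was 0.00, with Adk, the adenosine kinase with the highest mean level, at 0.08.

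Of the 6 calls 5 lay on chromosome 10, home to 578 (4.82%) of the tested genes. Gm4924, 1190007I07Rik and Tdg start 2.31 to 2.58 Mb after Gpx4, whereas Gm9855 and Gpx4-ps2 are 38.0 and 34.2 Mb away. Within 5 Mb of Gpx4, 169 other genes were tested, of which 3 were called, where 0.0501% of all genes were. A p under 0.05 before adjustment was found for 9 (5.33%, against 4.56% of all genes), 3 higher and 6 lower, and the median fold change of the 169 was -0.04. Mum1, chosen after its values were seen, and the 3 called genes were those with such a p on both diets, and Mum1 went opposite ways (-0.20 on HFHS and 0.16 on CNTL).

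**Figure D3:**
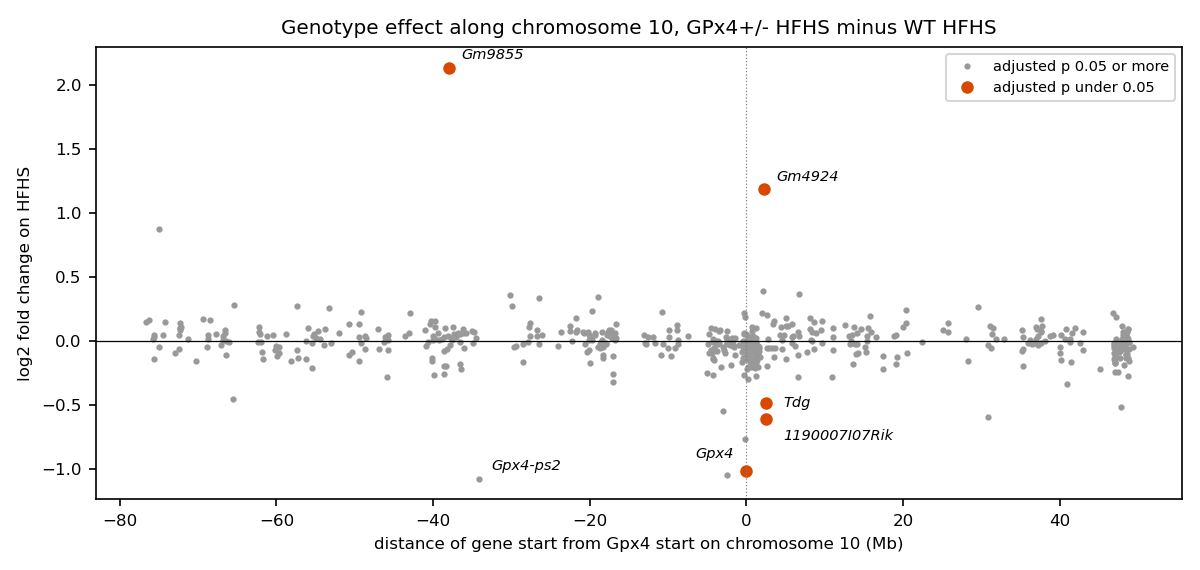
Log2 fold change of GPx4+/- HFHS over WT HFHS (vertical axis) for the 578 tested genes of chromosome 10, by distance of the gene start from that of Gpx4 in Mb (horizontal axis). Called genes are orange, and 3 of them sit 2.31 to 2.58 Mb from Gpx4 amid many genes near 0.

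The same contrast in the CNTL mice, which share no animal with the HFHS comparison, gave 6 calls as well (0.0501%), and p before adjustment was under 0.05 for 754 genes (6.29%). CNTL hearts held RNA of other cells too. The summed atrial level was 5954 in WT CNTL replicate 3, and 8971 and 2366 in GPx4+/- CNTL replicates 1 and 2, against at most 950 in the other CNTL mice. The summed hepatocyte level was 1619 in GPx4+/- CNTL replicate 2. These mice stayed in the fit without the 4 HFHS hearts. Of the 6 genes called on HFHS, 5 were called on CNTL, all 6 had the same direction, and Gm4924 had an adjusted p of 0.0663 from limma there. Their CNTL fold changes were 2.15 for Gm9855, 1.07 for Gm4924, 0.45 for Hprt, -0.48 for 1190007I07Rik and -0.56 for Tdg. The test of a difference between diets called 0 genes (limma, smallest adjusted p = 0.482), with 856 genes (7.14%) at an unadjusted p under 0.05, and for the 6 its adjusted p was between 0.739 and 0.992. The 95% interval of that difference was -0.05 to 0.36 for Hprt, -0.14 to 0.29 for Tdg, -0.37 to 0.11 for 1190007I07Rik and -0.48 to 0.72 for Gm4924. Of the 547 genes with p under 0.05 before adjustment on HFHS, 57 also had it on CNTL (10.4% of the HFHS genes and 7.56% of the CNTL genes), and 19 of the 57 had the same direction on both diets.

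The 8 higher and 8 lower genes with the smallest p among those not called, at a mean scaled TPM of at least 5, had absolute fold changes of 0.18 to 0.53 and adjusted p of 0.236 to 0.979 from limma. Higher in GPx4+/- HFHS were Csnk1g3, a casein kinase (0.44), Lnpep, the insulin-regulated aminopeptidase of GLUT4 vesicles (0.22), Snx5, a sorting nexin (0.20), Wdr82 (0.20), Dmxl1 (0.20), Prkaa2, the alpha 2 subunit of AMP-activated kinase (0.19), Opa1, the inner membrane fusion GTPase (0.18), and Nlrp10 (0.18). Lower were Gabbr1, a GABA-B receptor subunit (-0.53), Gsdmd, the pore-forming protein of pyroptosis (-0.32), Akap9, a kinase anchor of the Golgi and centrosome (-0.29), Acd, a shelterin component (-0.28), Ing1 (-0.28), Gtf2h4 of TFIIH (-0.25), Clk2, a splicing kinase (-0.25), and Mib2 (-0.25). In 11 of the 16 the mice did not overlap, against 0.726% of all genes, and since the 16 were chosen for their small p nothing is read from that count. On CNTL, 4 of the 16 had the same sign, 0 had an unadjusted p under 0.05 in limma, and absolute fold changes were 0.001 to 0.17. Without the 4 hearts rich in RNA of other cells, each of the 16 kept its sign on HFHS and those that moved by over 1.5 times were Lnpep (0.34), Dmxl1 (0.31) and Gsdmd (-0.17).

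Single mice show how small these differences were. Prkaa2 was at 21.5, 20.5, 22.2, 20.3 and 19.3 scaled TPM in WT HFHS and at 23.1, 24.5, 24.1, 21.5 and 25.5 in GPx4+/- HFHS, with GPx4+/- replicate 4 inside the WT range. Opa1 was at 54.7, 60.1, 59.6, 52.8 and 56.5 in WT HFHS. In GPx4+/- HFHS it was at 66.9, 65.5, 63.2, 61.1 and 65.2, just above the WT values. Gsdmd was at 8.90, 9.12, 9.73, 9.14 and 8.13 in WT HFHS and at 7.35, 7.91, 6.16, 6.47 and 7.88 in GPx4+/- HFHS. Akap9 was called without WT HFHS replicate 3 (log2 fold change -0.35, adjusted p = 0.0210 from limma).

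**Figure D4:**
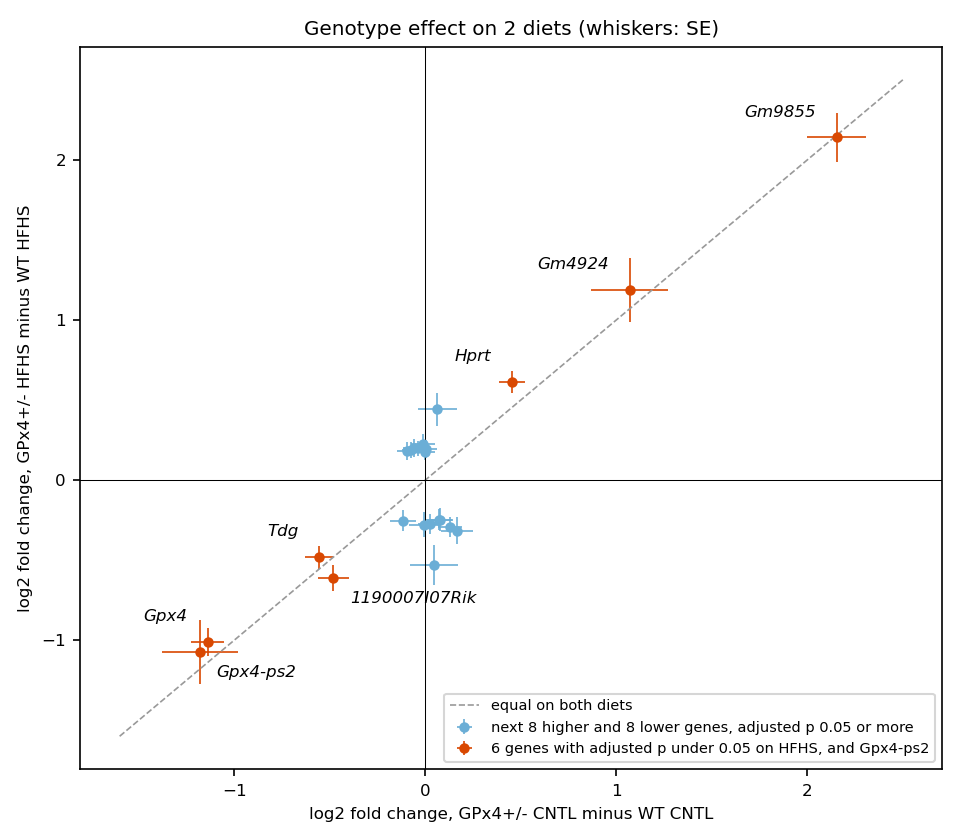
Log2 fold change between genotypes on HFHS (vertical axis) against that on CNTL (horizontal axis), with SE. The 6 called genes and Gpx4-ps2 lie along the dashed line of equal change, and the 16 next genes lie near 0 on CNTL.

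Most genes were measured closely enough to bound their change. The 95% interval reached a median of 0.19 to either side of the fold change on the log2 scale, and for 10470 of the 11977 genes not called the whole interval lay between -0.5 and 0.5. The median absolute fold change over all genes was 0.07, and 48 genes exceeded 1. Of these 48, 45 were not called, and 23 of the 45 had their highest value in GPx4+/- HFHS replicate 1, the heart with most hepatocyte RNA. Only 9 of the 45 were members of the hepatocyte or atrial marker list. Leaving out the 4 hearts with RNA of other cell types kept the number called at 6, with Bace1 gained and Tdg lost. It raised the number at an unadjusted p under 0.05 from 547 to 1408 genes, with 2 GPx4+/- HFHS and 4 WT HFHS mice left. The GPx4+/- HFHS mice left, replicates 2 and 5, had a higher mitochondrial share of TPM (48.72% and 44.95%) than each other HFHS mouse. Whether this bears on the rise was not tested.

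Turning to the pathway of Gpx4, none of its relatives was called. Of 8 glutathione peroxidases 5 were tested, and 4 beside Gpx4 had fold changes of -0.08 to 0.09. Gpx1, the cytosolic enzyme that clears hydrogen peroxide, was at 54.8, 68.1, 65.5, 76.6 and 58.7 in WT HFHS. In GPx4+/- HFHS it was at 63.1, 64.6, 56.2, 66.8 and 57.1, within the WT range in each mouse (log2 fold change -0.07, 95% interval -0.35 to 0.22). Gpx3, the secreted plasma form, had the widest interval, -0.73 to 0.90.

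Among other selenoproteins 16 of 20 were tested, with a median of -0.01. Selenot, an oxidoreductase of the endoplasmic reticulum, was the only 1 with an unadjusted p under 0.05, and the mice overlapped (37.8 ± 2.08 in WT HFHS and 41.3 ± 3.71 in GPx4+/- HFHS, SD, n = 5, log2 fold change 0.13). Selenow, the most abundant, had -0.11. Factors of selenoprotein synthesis, 9 of 11 tested, had a median of 0.02 and fold changes from -0.12 to 0.07, led in level by Rpl30 at 0.04.

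Of 34 ferroptosis regulators 28 were tested, and 0 were called by limma. Their median was 0.03 and 1 had an unadjusted p under 0.05. This was Dhodh, the mitochondrial dihydroorotate dehydrogenase, at 12.3, 12.2, 12.9, 11.5 and 11.7 in WT HFHS. It was at 12.8, 8.78, 10.6, 11.5 and 9.26 in GPx4+/- HFHS, with replicates 1 and 4 inside the WT range (log2 fold change -0.20, adjusted p = 0.979 from limma). These replicates are among the 4 hearts rich in RNA of other cells, and without those 4 the fold change of Dhodh was -0.42 (SE 0.085, adjusted p = 0.133 from limma). The parallel enzyme Aifm2 had -0.11 (95% interval -0.31 to 0.09) and Gch1 0.07 (-0.18 to 0.31), and Acsl4, which loads polyunsaturated fatty acids into lipids, had 0.09 (-0.09 to 0.27). Vdac2, the member with the highest mean over the 25 mice, had 0.07. The cystine transporter Slc7a11 was too low to be tested, at 0.064 ± 0.027 in WT HFHS and 0.115 ± 0.094 in GPx4+/- HFHS (SD, n = 5).

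Of 29 genes of iron uptake, storage and export 24 were tested, with a median of -0.02 and 0 called in limma. Ireb2, the iron regulatory protein that is degraded when iron is ample, had an unadjusted p under 0.05, at 7.08, 7.56, 7.42, 7.18 and 5.79 in WT HFHS and 7.31, 9.31, 7.47, 8.19 and 8.17 in GPx4+/- HFHS (log2 fold change 0.20). Ftl1, the ferritin light chain, was the other, at 371.3, 455.9, 322.9, 363.6 and 437.3 in WT HFHS and 316.6, 348.1, 318.1, 399.0 and 313.8 in GPx4+/- HFHS (-0.20). Both overlapped between the groups. The heavy chain Fth1 spanned 1392 to 1626 and 1458 to 1543 (-0.03, 95% interval -0.15 to 0.08). The transferrin receptor Tfrc was too variable to bound, at 5.81 to 18.9 in WT HFHS and 11.2 to 19.8 in GPx4+/- HFHS (0.43, 95% interval -0.16 to 1.01).

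Beside Gpx4 itself, the other genes that the study measured by qRT-PCR and that were tested here were not called. Fold changes were 0.08 for Gsta1, a glutathione transferase (95% interval -0.46 to 0.62), 0.01 for Cat, catalase (-0.14 to 0.16), -0.10 for Gsr, glutathione reductase (-0.27 to 0.06), -0.02 for Txn2, mitochondrial thioredoxin (-0.12 to 0.09), -0.01 for Tgfb1 (-0.20 to 0.18) and 0.12 for Nos2 (-0.17 to 0.41). Ager, the receptor for advanced glycation end products, was too low to be tested, at 0.0400 to 0.259 in WT HFHS and 0.142 to 0.313 in GPx4+/- HFHS (two-sided exact permutation p = 0.238). The intervals of Cat, Gsr, Txn2 and Tgfb1 lie wholly between -0.5 and 0.5, whereas that of Gsta1 does not.

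Antioxidant lists held no call. Nrf2 targets and glutathione synthesis genes (22 of 24 tested) had a median of -0.02, with Tkt, the transketolase of the pentose phosphate pathway, at an unadjusted p under 0.05 (16.4 ± 1.08 and 14.2 ± 1.55, SD, n = 5, log2 fold change -0.20). Me1, the most abundant, had -0.02. Medians were -0.06 for 20 glutathione S-transferases (Mgst3 -0.05), -0.02 for 16 peroxiredoxins and thioredoxins (Txnip -0.05), -0.02 for 10 superoxide and hydrogen peroxide enzymes (Sod2 0.01) and -0.01 for 27 enzymes that clear reactive aldehydes (Aldh2 -0.13). In these last 4 lists 0 genes had an unadjusted p under 0.05 in limma.

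Matrix and inflammatory genes showed no call. Collagens had a median of 0.03 over 18 genes, with Col4a3, a basement membrane chain, at 1.37, 1.74, 2.08, 2.92 and 2.58 in WT HFHS and 1.30, 1.49, 1.43, 1.28 and 1.56 in GPx4+/- HFHS (log2 fold change -0.43, adjusted p = 0.979 from limma). The highest Col4a3 value was that of WT HFHS replicate 4, the heart with most smooth muscle and valve RNA, and without the 4 hearts its fold change was -0.25 (unadjusted p = 0.303 from limma). Col4a1 had 0.14. Collagen hydroxylases and cross-linking enzymes had a median of -0.02 (Tgm2 0.05). TGF-beta signalling had a median of -0.06 with 7 of 30 genes higher (Ltbp4 -0.17), and fibroblast matrix proteins had -0.11 with 6 of 23 higher (Dcn -0.11). Fibroblast markers moved with these lists, with 1 of 10 higher and a median of -0.12, and their part in the result was not tested. Their summed level was 1239 to 1950 in WT HFHS and 1106 to 1963 in GPx4+/- HFHS, and none of the 10 was at 0 in all mice. Without the 4 hearts the medians turned to 0.19 for fibroblast matrix proteins, 0.03 for TGF-beta signalling and 0.02 for fibroblast markers, and that of collagens was 0.35. Inflammation genes had 0.03 (Nfkbia -0.09, and a list median of 0.25 without the 4 hearts) and interferon-stimulated genes 0.06 (Ifi27 -0.21).

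Metabolic and stress lists held no call either. With all 10 mice, medians were 0.02 for 33 genes of fatty acid oxidation and ketone use (Hadhb 0.03), -0.01 for fatty acid uptake and lipid storage (Fabp3 0.01), -0.02 for sterol and fatty acid synthesis (Acacb -0.04), 0.00 for glucose uptake and use (Aldoa -0.03) and -0.04 for fasting, glucose and insulin responsive genes (Pdk4 -0.05). G0s2, an inhibitor of triglyceride lipase (-0.18), and Hmgcs1, a sterol synthesis enzyme (0.14), had an unadjusted p under 0.05. So did Mthfd2 of the integrated stress response (0.39, list median 0.05), Dnajb9 of the endoplasmic reticulum chaperones (0.19, list median 0.03) and Bhlhe41 of the circadian clock (0.23, list median 0.02). The most abundant members of those 3 lists were Vldlr (0.08), Herpud1 (-0.14) and Tef (-0.09). Heat shock proteins had a median of 0.02 (Cryab -0.01) and immediate early genes -0.02 (Dusp1 -0.10).

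Among genes of the cardiomyocyte itself, the calcium list had most members above 0. Of 21 tested genes of calcium cycling 18 were higher, with a median of 0.05 against -0.003 over all genes and 0 called in limma. Camk2d, the calmodulin kinase, was at 56.7, 54.3, 54.1, 53.6 and 44.2 in WT HFHS and 61.3, 58.0, 58.2, 55.6 and 61.5 in GPx4+/- HFHS (log2 fold change 0.17). Slc8a1, the sodium-calcium exchanger, was at 87.5, 81.6, 88.5, 81.8 and 77.3 in WT HFHS and 95.6, 82.5, 101.4, 92.5 and 97.4 in GPx4+/- HFHS (0.17). In each gene a single GPx4+/- mouse lay inside the WT range, and adjusted p were 0.979 in limma. On CNTL the median of this list was -0.06. Hypertrophy and fetal genes had a median of 0.02 (Nfatc1 -0.18, Myh6 -0.07) and Atp2a2, the calcium pump of the sarcoplasmic reticulum, had 0.05. Among the 10 cardiomyocyte markers, Ttn had -0.16 with an unadjusted p under 0.05 and Myl2 0.02. Without the 4 hearts the fold change was 0.10 for Slc8a1 and -0.09 for Ttn.

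Mitochondrially encoded mRNAs had the highest median of the 33 lists, 0.20, and each of the 13 was higher, from 0.10 for mt-Cytb to 0.42 for mt-Atp8. None had an unadjusted p under 0.05 in limma, and mt-Co1 was at 80028 ± 13355 in WT HFHS and 87190 ± 8790 in GPx4+/- HFHS (SD, n = 5). These mRNAs share 1 genome, so the 13 are not taken as independent. On CNTL the median was -0.08, and without the 4 hearts the HFHS median was 0.38. The GPx4+/- HFHS mice left in that fit were replicates 2 and 5. Mitochondrial transcripts made up 48.72% and 44.95% of their TPM, against 31.31% to 42.49% in WT HFHS. In the GPx4+/- HFHS mice left out the share was 32.99% to 40.21%. Whether this choice of mice accounts for the median of 0.38, or for changes in other list medians, was not tested. Mitochondrial dynamics and biogenesis had a median of 0.05 (Opa1 0.18, Pink1 -0.10).

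The list of base excision repair was chosen with earlier results of these data known, so nothing is read from its counts. It held 3 genes with an unadjusted p under 0.05 among the 17 tested, all lower, where 4.56% of all genes had one. These were Tdg, with its copy as above, Mutyh, which removes adenine opposite oxidised guanine (1.10 ± 0.207 and 0.776 ± 0.146, SD, n = 5, log2 fold change -0.33), and Ogg1, which removes oxidised guanine (4.56 ± 0.351 and 4.08 ± 0.305, log2 fold change -0.14). Mutyh and Ogg1 had adjusted p of 0.979 from limma, and the fold change of Mutyh on CNTL was 0.45. The median of the 17 genes tested was -0.02 and Polb, the most abundant, had 0.00. Cell death genes included Apaf1, the apoptosome scaffold (-0.28), beside Gsdmd, with a list median of 0.01 and Cycs at 0.21. Without the 4 hearts Apaf1 was at -0.09 and Gsdmd at -0.17.

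Over the 33 lists, 663 of 744 genes were tested, and 3 were called, Gpx4, Tdg and Hprt, where 0.0501% of all genes were. The lists were chosen with earlier results of these data known, so nothing is read from that count. A p under 0.05 before adjustment was found for 22 (3.32%, against 4.56% of all genes), 10 higher and 12 lower. In 16 lists 0 genes had an unadjusted p under 0.05 in limma, and medians ran from -0.11 to 0.20, with 31 of 33 between -0.1 and 0.1. Without the 4 hearts they ran from -0.14 to 0.38, 11 of 33 had the other sign, and 9 of 33 lay outside -0.1 to 0.1, among them glutathione S-transferases (-0.13), superoxide and hydrogen peroxide enzymes (-0.14), base excision repair (-0.13), endoplasmic reticulum chaperones (0.12) and the integrated stress response (0.12). Beside Dhodh, the genes named above for p under 0.05 before adjustment whose fold change then grew by over 1.5 times were Mthfd2 (0.71), Bhlhe41 (0.42), Dnajb9 (0.35), Ireb2 (0.31) and Selenot (0.24). Those whose fold change shrank by over 1.5 times, with Col4a3 and Apoa2 as given in their own sentences, were Apaf1 (-0.09), Gsdmd (-0.17), Slc8a1 (0.10) and Ttn (-0.09), with adjusted p of 0.556 to 0.822 from limma.

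**Figure D5:**
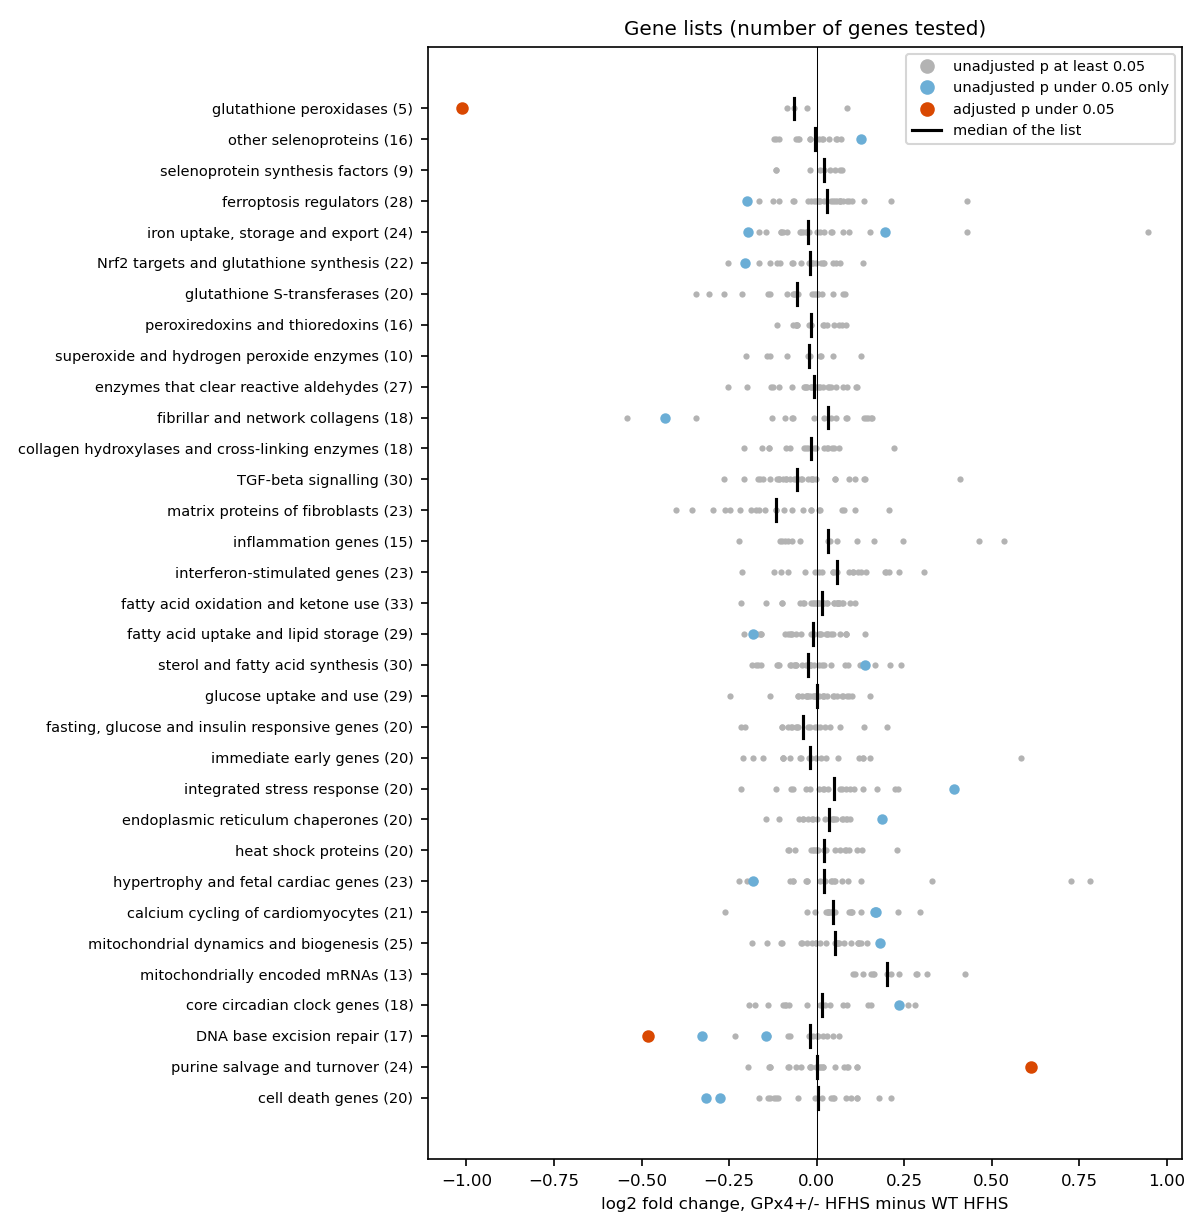
Log2 fold change of GPx4+/- HFHS over WT HFHS (horizontal axis) of each tested gene in 33 lists (rows, number tested in brackets), with the list median as a black line. Gpx4, Tdg and Hprt are the orange points, and with all 10 mice the medians but those of fibroblast matrix proteins and mitochondrial mRNAs lie within 0.1 of 0.

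Markers of other cells were examined in the same way, and none was called. Smooth muscle markers were lower in GPx4+/- HFHS for 10 of 10 genes, with a median of -0.49 and a summed level of 951 to 1379 in WT HFHS and 886 to 1035 in GPx4+/- HFHS (two-sided exact permutation p = 0.167), the top value being WT HFHS replicate 4. Without the 4 hearts the smooth muscle median was -0.06 and that of valve markers -0.03. Hepatocyte markers had a median of 1.37, which fell to 0.01 without the 4 hearts named above, and their summed level was 4.86 to 21.3 in WT HFHS and 4.47 to 139 in GPx4+/- HFHS. Of these only Apoa2 had an unadjusted p under 0.05 (log2 fold change 2.17), at 31.1, 0.835, 23.4, 7.50 and 2.02 in GPx4+/- HFHS and 0.844 to 1.31 in WT HFHS, and without the 4 hearts its fold change was 0.20 (unadjusted p = 0.874 from limma). Valve markers had -0.34 (Cytl1 -0.59), endocardium and vein -0.20 (Vwf -0.58), endothelial cells -0.01 (Egfl7 -0.03), fibroblasts -0.12 (Gsn -0.18), macrophages -0.02 (C1qa -0.05), red blood cells -0.10 (Hbb-bs -0.10), adipocytes 0.04 (Fabp4 0.04), skeletal muscle 0.01 (Ckm -0.02) and atrial cardiomyocytes 0.18 (Clu 0.22). GPx4+/- HFHS replicate 4 was highest for 9 of 9 atrial and 6 of 9 adipocyte markers. Without the 4 hearts the median turned to -0.40 for atrial, -0.55 for adipocyte and -0.19 for skeletal muscle markers, while that of macrophages was 0.12. WT HFHS replicates 1 and 2, which held some atrial RNA, were kept in that fit. WT HFHS replicate 4 was highest for 5 of 8 markers of endocardium and vein, whose median was then -0.07, and the medians were 0.04 for endothelial cells and -0.06 for red blood cells. Trac was the only lymphocyte marker tested (-0.50). In the first principal component of the 10 hearts, 20.9% of the variance, the genotypes did not separate (two-sided exact permutation p = 0.484), nor did they in the second (p = 0.960 by the same exact permutation test).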

How the data were processed

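Bulk myocardial poly(A) RNA of 25 mice (5 groups of 5) was sequenced from stranded libraries. The authors deposited TPM per transcript and library (119215 transcripts); the submitters' processing notes name kallisto 0.43.1, sleuth 0.30.0 and GRCm38, while the methods describe DESeq2 on gene counts. Columns were matched by the library names in the header. The deposited transcript length, another value of the authors, was not used. Transcripts were summed to genes of GENCODE M21 (116772 matched, 2443 not, holding 0.551% to 0.723% of the TPM) and divided by median-ratio factors (11879 genes, 0.865 to 1.16). Because TPM are not counts, limma 3.58.1 (R 4.3.3, trended empirical Bayes) was used, with 4 groups (20 mice) in 1 fit, on log2(scaled TPM + 0.5). It was tested on simulated data. Transcripts were aligned with blastn 2.17.0.

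Named are Gpx4, its pseudogene, Gm9855, called genes, the next 8 in each direction, the qRT-PCR genes, and in each list the members at an unadjusted p under 0.05 (at most 4) and the one with the highest mean over the 25 mice. Any other gene named was chosen after its values were seen. The members and lists were chosen with earlier results of these data known. Replicate numbers name different mice, and p-values measure the spread between them. Alternatives were the pseudocount, filter, scaling, transcript level, replicate block, weights, mice fitted and mice left out. The results of 1 marker list and 1 transcript are not reported here.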

Additional observations from a re-analysis of the deposited data

Results flagged for a closer look

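Within groups of 5, 98 sets of values were searched for a mouse that lay far from its group, taking the gap to its nearest neighbour over the group's range, both in log2 units after adding 0.5 to the scaled TPM, and a limit of 0.71. Chance alone picks out about 1 in 20 such sets, or 4.9 here, and 6 were found.

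The atrial marker sum of GPx4+/- HFHS replicate 4 was highest with a ratio of 0.835. The lymphocyte marker sum of WT HFHS replicate 5 was lowest with a ratio of 0.806, on a summed level of 3.20 to 4.63 in that group. Gpx4-ps2 was lowest in WT HFHS replicate 2 (ratio 0.893, from scaled TPM of 1.43 against 2.42 to 2.56 in the other WT HFHS mice), and without this mouse it was called (log2 fold change -1.20, adjusted p = 0.0183 from limma). Gm9855 was lowest in GPx4+/- HFHS replicate 4 (ratio 0.759), Cat was highest in GPx4+/- HFHS replicate 2 (0.728) and Fth1 was highest in GPx4+/- HFHS replicate 3 (0.723).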

How the results depend on the processing

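The number of genes called on HFHS was 6 and lay between 4 and 7 under every gene-level alternative tried, with 3 higher and 4 lower on TPM as deposited. With transcripts tested singly 4 transcripts were called. Gm9855-201, Gpx4-202 and Hprt-201 were among them, and no transcript of 1190007I07Rik, Tdg or Gm4924 was. Gpx4, Hprt and 1190007I07Rik were called in each gene-level fit. Gm9855 was left untested at a mean of at least 5. Tdg lost its call with only the 10 HFHS mice in the fit (adjusted p = 0.229 from limma), as did Gm4924 (0.229), which was also lost with no filter (0.0808) and with quantile normalization (0.0604). The count at an unadjusted p under 0.05 was 547, and moved to 1137 genes with no filter on low values (25881 genes tested), 1055 transcripts tested singly (of 23317) and 1408 genes without the 4 hearts rich in RNA of other cells; leaving out 1 mouse gave 368 to 770. Calls on CNTL were 5 to 7, or 4 at a mean of at least 5 and 9 with array weights, and the difference between diets called 0 genes in all.

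Same-numbered mice of the 2 genotypes did not deviate together (correlations -0.089 to 0.094, 0 of 5 pairs above 0.1). With the replicate block 6 genes were called on HFHS, the same 6. On CNTL 6 were called, among them Gm4924, which the main fit did not call there. Leaving out 1 mouse moved Gpx4 between 47.6% and 50.6% of WT, and the Tdg and Gm9855 sum between 100.4% and 105.9%; that sum was 97.1% with TPM as deposited (exact permutation p = 0.675). Genes near 0 turned direction without being called. Gsta1 had -0.057 with array weights and -0.10 to 0.23 without 1 mouse. Cat had -0.061 with TPM as deposited, -0.022 with array weights and -0.042 to 0.043 without 1 mouse. Txn2 had -0.041 to 0.0023 without 1 mouse. Tgfb1 had 0.025 with array weights, 0.17 without the 4 hearts and -0.080 to 0.057 without 1 mouse. The cause was not tested. Without read counts, depth cannot be weighed.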

Other observations

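The WT HFHS mice given carnosine entered no comparison here, but they show the range of the called genes in further WT hearts on the same diet. The study reports that carnosine raised cardiac GPx4 mRNA and protein on this diet. Here Gpx4 was at 666 to 733 scaled TPM in these 5 mice, inside the 601 to 777 of WT HFHS. Hprt was at 29.1 to 36.0, 1190007I07Rik at 15.3 to 19.9 and Tdg at 5.84 to 9.37. Gm9855 was at 0.0681 to 0.290, far below the 2.36 to 2.79 of GPx4+/- HFHS. Gm4924 was at 0.606 to 1.30 and overlapped the lowest GPx4+/- HFHS mouse at 0.982.

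Genes outside the naming rule, chosen after their values were seen, add to this. Zfp938, a zinc finger gene 2.17 Mb from Gpx4 on chromosome 10, had a log2 fold change of 0.39 (SE 0.092, adjusted p = 0.332 from limma), and 0.15 on CNTL. Gm10925, a transcript on chromosome 1, had the most negative fold change of all genes, -3.27, from values of 953.3, 510.9, 681.3, 641.1 and 720.9 in WT HFHS and 695.5, 0.0660, 964.9, 68.1 and 69.5 in GPx4+/- HFHS. It was not called (adjusted p = 0.979 from limma), and its values within GPx4+/- HFHS spanned more than those between the groups.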
